A study of Mus musculus with 12 samples.

Results

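The 43 genes described here encode the enzymes, membrane proteins and proton pump of the lysosome, with the 3 transcription factors Tfeb, Tfe3 and Mitf. They were chosen by name, as entries of the deposited count table whose Ensembl identifier carries one of the 43 symbols in GENCODE M21. Each of the 43 symbols was found among the 59136 entries of the table, and each passed the filter on low counts that left 19004 tested entries. Their counts ran from 144 to 20911 reads per gene and library.

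Messenger RNA was sequenced from lungs of mice at day 28, in 12 libraries of 6 per group. The Mut group carried the Iars1 alleles Tyr148Cys and Arg444*, a cysteine for a tyrosine and a stop codon for an arginine, and its genotype label speaks of a knockdown. The WT group carried wild-type Iars1, the gene of the cytosolic isoleucyl-tRNA synthetase, and both groups shared the tissue and the day. The labels also call the material primary cells and name neither strain nor sex. They do not say that the libraries are separate mice, and every p-value therefore rests on a spread between libraries that may be technical. Iars1 (annotated as Iars) read from 35.6 to 58.4 CPM (counts per library size, scaled by TMM) in WT (median 46.3) and from 41.4 to 71.6 CPM in Mut (median 53.6), a difference that was not called, that is, its adjusted p by edgeR was not under 0.05 (0.189), so the transcript was not measurably lower in the group whose label speaks of a knockdown. A transcript level does not check a point mutation, and the groups are named as labelled. The series title links the mutation to surfactant deposits and to cathepsin Z, a lysosomal protease.

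Lysosomes digest proteins, lipids, glycans and glycosaminoglycans in an acid interior that the vacuolar ATPase (V-ATPase) maintains by pumping protons. Tfeb, Tfe3 and Mitf belong to 1 family of transcription factors that bind an E-box with the core CACGTG, and many lysosomal promoters carry it. In lung, alveolar macrophages degrade surfactant in lysosomes, and alveolar type 2 cells store it in lamellar bodies, organelles related to lysosomes.

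The core E-box stood in the promoters of many of the 43 genes, and its sequence is shown because the 3 factors of the list bind it. RefSeq promoter windows of 300 bases (250 before and 50 after each start site, build GRCm38.p6) were present for 37 of the 43 genes. The palindrome CACGTG, which reads the same on both strands, occurred in windows of 12 of the 37 genes (32.4%), against 8.09% of all 27025 genes in that promoter table. Its extended form TCACGTGA, which contains the core, occurred in 6 of the 37 (16.2%), against 1.12% of all genes. The stretches below run 5′ to 3′ on the strand of the gene, with the extended form or, for Naglu and Lamp1, the core in capitals.
Atp6v0d1, chr8:105566050-105566079, minus strand: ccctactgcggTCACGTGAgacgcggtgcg
Atp6v1a, chr16:44139373-44139402, minus strand: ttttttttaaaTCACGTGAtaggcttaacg
Cln3, chr7:126583340-126583369, minus strand: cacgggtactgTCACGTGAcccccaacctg
Ctsa, chr2:164833749-164833778, plus strand: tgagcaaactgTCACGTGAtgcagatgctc
Gla, chrX:134601182-134601211, minus strand: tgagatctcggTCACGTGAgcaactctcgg
Mcoln1, chr8:3500462-3500491, plus strand: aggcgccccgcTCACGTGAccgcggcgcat
Naglu, chr11:101070009-101070038, plus strand: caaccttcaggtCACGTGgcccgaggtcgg
Lamp1, chr8:13159088-13159160, plus strand: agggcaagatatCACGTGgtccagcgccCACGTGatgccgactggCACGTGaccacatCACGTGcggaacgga

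The Lamp1 stretch holds 4 copies of the core within the 73 bases before its start site. The other genes with the core were Arsa, Gaa, Glb1 and Sgsh. Of the 6 genes called between the groups, Tpp1, Mitf, Ids and Manba had a promoter window, and none of their windows held these letters. Atp6v0d2 and Galns had no entry. Of the 12 genes with the core, 0 were called by edgeR (3 at an unadjusted p under 0.05, 1 by DESeq2 and 0 by limma-voom). Over all entries 9.89% were called by edgeR and 27.7% had an unadjusted p under 0.05, so these counts are not read as a result about the core. Of the 25 genes with a window and no core, 3 were called higher and 1 lower. The median log2 fold change was 0.00 for the 12 genes and −0.04 for the 25.

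Levels per gene length differed widely among the 43 genes. In deposited FPKM, a level scaled to gene length and library total, Psap stood first at 370 ± 31.5 in WT (mean ± SD, n = 6) and Lamp1 second at 284 ± 14.8. Psap encodes the precursor of the saposins, which present sphingolipids to their hydrolases, and Lamp1 a main glycoprotein of the lysosomal membrane. Together they held 43.7% of the summed WT FPKM of the 43 genes. The next in order were the pump's accessory subunit gene Atp6ap1 at 85.8 ± 5.45, then Asah1 at 60.8 ± 4.44 and Scarb2 at 60.5 ± 5.73 FPKM, whose difference was smaller than their spread. At the low end Mitf stood at 2.21 ± 0.326, Galc at 1.90 ± 0.104 and Arsb at 1.89 ± 0.387 FPKM, the last 2 again within their spread. 24 of the 43 genes lay above 10 FPKM in WT.

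**Figure D1:**
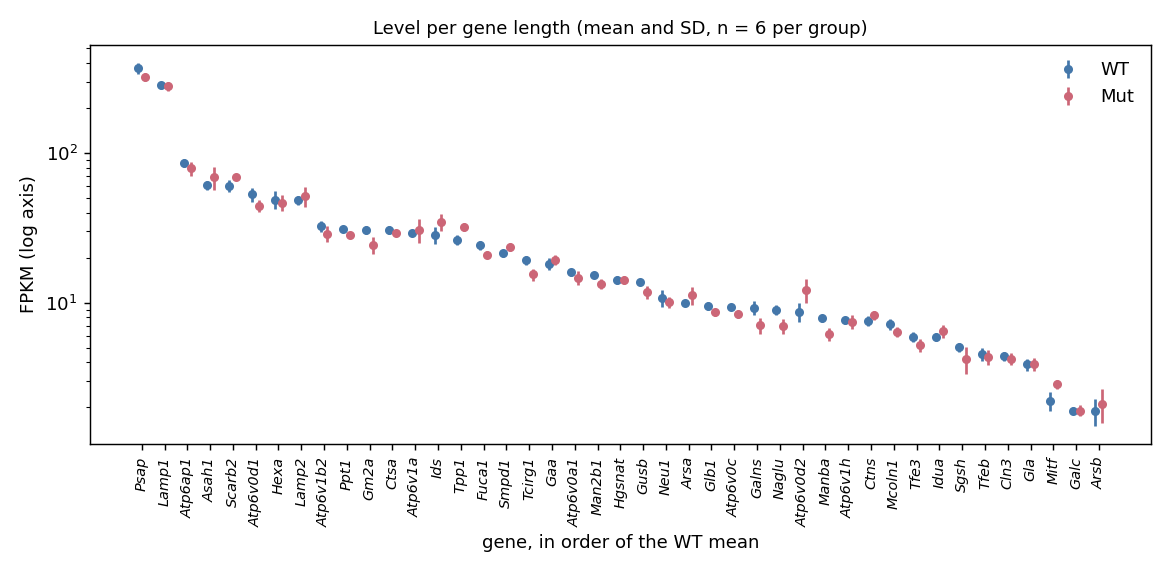
Level of each of the 43 genes in FPKM on a log axis, in order of the WT mean, with points for the group means and bars for the SD (n = 6 per group). Psap and Lamp1 stand above the rest, from 370 and 284 FPKM in WT down to 1.89 FPKM for Arsb.

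3 libraries held more of the extreme values of these genes than the others of their group. Mut replicate 7 was the most deeply sequenced library (24014890 counted reads, against 17118716 to 20119498 in the others). It held the highest Mut value for 15 of the 43 genes and the lowest for another 15. It also had the highest summed level of 12 macrophage and monocyte markers, 9008 CPM. The other Mut libraries ran from 4545 to 5665 CPM and the WT libraries from 4052 to 4880 CPM. The median sum was 4324 CPM in WT and 5348 CPM in Mut, so the Mut sums were also higher apart from replicate 7. For 12 alveolar type 2 markers, Mut replicate 7 again had the highest sum (37092 CPM, against 18586 to 29413 CPM in the other 11 libraries). Gene by gene, 0 of the 12 macrophage and monocyte markers were called higher in Mut and 3 lower (median log2 fold change −0.11). Of the 12 type 2 markers 1 was called higher and 0 lower (median 0.13). WT replicate 4 held the highest WT value for 21 of the 43 genes, and WT replicate 7 the lowest for 17. Without WT replicate 7, 8 of the 43 genes were called in place of the 6 reported below. Over all entries 992 were then called higher and 1095 lower, against 869 and 1010 with it. Leaving out Mut replicate 3 or Mut replicate 7 also gave 8 (1163 and 1205, and 1074 and 1104, over all entries). Leaving out WT replicate 4 gave 4 (501 and 650). The markers of type 2 cells, the surfactant gene Sftpc among them, were abundant in every library of this lung tissue. Other marker lists moved with the genotype. Of 7 erythroid markers 7 fell (median log2 fold change −2.15), with sums of 983 to 5889 CPM in WT, highest in replicate 4, and 154 to 821 CPM in Mut. Of 8 tested airway gland and secretory markers 5 rose (median 1.71, sums of 13029 to 21904 CPM in WT and 10213 to 19797 CPM in Mut). Of 6 tested adipocyte markers 3 rose (median 1.74, sums of 114 to 305 CPM in WT and 216 to 476 CPM in Mut). Of 8 cardiac muscle markers 0 were called, while all 8 had a positive log2 fold change (median 0.81). The cardiac sums ran from 180 to 781 CPM in WT and from 297 to 1861 CPM in Mut. The part of these marker lists in the results was not tested. In bulk tissue, fewer cells of a type and less RNA per cell cannot be told apart.

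Across the 43 genes there was no common shift, and 6 were called between the groups. By edgeR's quasi-likelihood test, adjusted over all 19004 entries, 4 genes were higher and 2 lower in Mut at an adjusted p under 0.05. DESeq2 called 11 of the 43, 6 higher and 5 lower, and over all 23728 entries that it tested 1219 higher and 1391 lower. Limma-voom called 6 of the 43, and over all 19004 entries 769 higher and 998 lower. By edgeR the 6 called of 43 are 13.95%, against 9.89% of all entries tested (higher 4.57%, lower 5.31%). The higher genes were Tpp1, Atp6v0d2, Mitf and Ids, and the lower ones Manba and Galns. The median log2 fold change (Mut minus WT) of the 43 genes was 0.00, against 0.01 over all entries. At an unadjusted p under 0.05 stood 18 of the 43 (41.9%), 10 higher and 8 lower, against 27.7% of all entries. The groups did not overlap for 5 genes (11.6%, against 4.58% of all entries). They were Tpp1, Atp6v0d2, Mitf and Scarb2 on the higher side, where 2.18% of all entries stood, and Manba on the lower side, where 2.39% stood.

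The differences were small. Fold changes of the 43 genes ran from −0.33 (Galns) to 0.55 (Atp6v0d2) on the log2 scale. For the 37 genes that were not called, the 95% confidence intervals lay between −0.50 and 0.59, that is, between a 1.41-fold lower and a 1.501-fold higher level in Mut. The coefficient of variation between libraries of a group was 7.24% in WT and 9.57% in Mut for the median gene. The summed level of the 43 genes was 5489 ± 186 CPM in WT and 5590 ± 185 CPM in Mut (n = 6 each).

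How firm a call was differed between the 6 genes. Tpp1, Atp6v0d2 and Mitf were called under each of 23 alternatives, 12 of them leaving out 1 library each and the others changing the scaling, the filter, the test or the set of entries or libraries. These 23 do not include the fit with the replicate number as a block, in which none of the 43 genes was called. That fit compared the groups only within replicate numbers that both groups shared, and so rested on fewer libraries. Manba was called under 14 of the 23, Galns under 13 and Ids under 5. The split between higher and lower genes also moved with the scaling, from 4 and 2 to 3 and 4 with RLE scaling and to 3 and 5 with upper-quartile scaling or library totals alone.

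**Figure D2:**
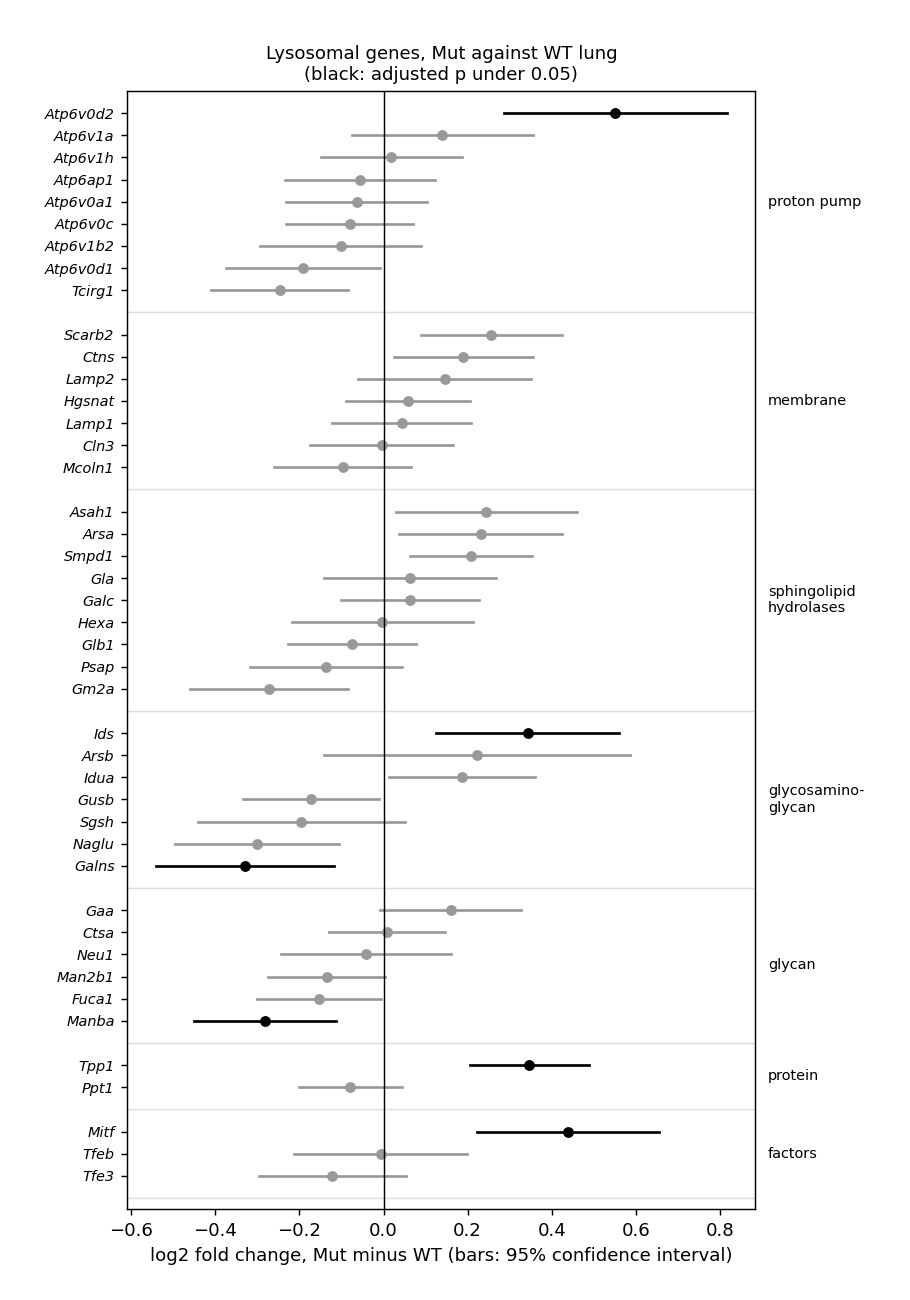
Log2 fold change of each of the 43 genes, Mut minus WT, with its 95% confidence interval (bars), grouped by role. The 6 called genes are black, from −0.33 for Galns to 0.55 for Atp6v0d2, and the other intervals lie between −0.50 and 0.59.

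Of the 9 proton pump genes 1 was called by edgeR, Atp6v0d2, and 8 were not. Of all 9, 3 had an unadjusted p under 0.05. DESeq2 called 2 of the 9, Atp6v0d2 and Tcirg1, and limma-voom 1, Atp6v0d2. The 1 call is near the share of all entries called, 9.89% (27.7% at an unadjusted p under 0.05). Atp6v0d2 encodes a tissue-restricted form of the d subunit in the membrane sector of the pump, known from osteoclasts and macrophages (ENSMUSG00000028238, chromosome 4 from 19876841 to 19922605, build GRCm38). It read from 18.3 to 26.9 CPM in WT (median 23.1) and from 27.8 to 45.8 CPM in Mut (median 31.9). All 6 Mut libraries lay above all 6 WT libraries, and Mut replicate 7 was the highest. The log2 fold change was 0.55 (SE 0.12, 95% confidence interval 0.29 to 0.82, adjusted p = 0.0141), a rise of 46.6%. Without Mut replicate 7 it was 0.45 and still called.

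Atp6v0d1, the form of the same subunit that most cells use, read from 82.1 to 113 CPM in WT (median 91.9) and from 74.4 to 95.1 CPM in Mut (median 80.5). 4 of the 6 Mut libraries lay below every WT library, and the difference was not called (log2 fold change −0.19, SE 0.09, adjusted p = 0.160, and −0.13 without WT replicate 4). Within each library, the FPKM ratio of Atp6v0d2 to Atp6v0d1 ran from 0.135 to 0.188 in WT (median 0.165) and from 0.220 to 0.406 in Mut (median 0.255). The groups did not overlap, and the log2 ratio was higher by 0.73 in Mut (two-sided exact permutation test over 924 splits, p = 0.00216, the lowest value possible with 6 libraries a group; adjusted over 2 ratios, 0.00433). Since it is taken within a library, this ratio does not depend on how libraries are scaled.

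Among the other membrane-sector genes, Tcirg1 had the next smallest p. Tcirg1 encodes the a3 form of the a subunit, known for its part in osteoclasts, and Atp6v0a1 the a1 form. Tcirg1 read from 78.2 to 94.9 CPM in WT (median 83.1) and from 65.2 to 83.5 CPM in Mut (median 69.4). 5 of the 6 Mut libraries lay below every WT library, and the difference missed the threshold (log2 fold change −0.25, SE 0.08, adjusted p = 0.0528). It was called without Mut replicate 4, the highest Mut library for this gene (adjusted p = 0.0168). Leaving out WT replicate 1 had the same effect (0.0490). Atp6v0a1 read from 92.0 to 111 CPM in WT and from 84.9 to 114 CPM in Mut, so its groups overlapped widely. The FPKM ratio of Tcirg1 to Atp6v0a1 lay between 1.16 and 1.25 in WT libraries and between 0.882 and 1.21 in Mut libraries. That ratio did not pass (log2 difference −0.18, two-sided exact permutation test, p = 0.102), but it did without Mut replicate 2 or without Mut replicate 4 (−0.22 each, exact p = 0.0390 for both).

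The ATP-hydrolysing sector gave overlapping groups throughout. Atp6v1a, the catalytic A subunit, read from 164 to 183 CPM in WT and from 168 to 263 CPM in Mut, where replicate 7 stood far above the next library at 180 CPM. Atp6v1b2, the B2 subunit, read from 150 to 193 and from 144 to 197 CPM, and Atp6v1h, the regulatory H subunit, from 67.6 to 77.6 and from 68.1 to 88.8 CPM. The proteolipid gene Atp6v0c (29.1 to 33.5 CPM in WT, 27.0 to 31.8 in Mut) and Atp6ap1 (237 to 286 and 224 to 296 CPM) overlapped as well. Of 14 further V-ATPase genes that were tested, outside the 43, 0 were called by edgeR, against 9.89% of all entries. At an unadjusted p under 0.05 stood 0, against 27.7% of all entries. DESeq2 and limma-voom called 0 each, and the median log2 fold change was −0.04.

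**Figure D3:**
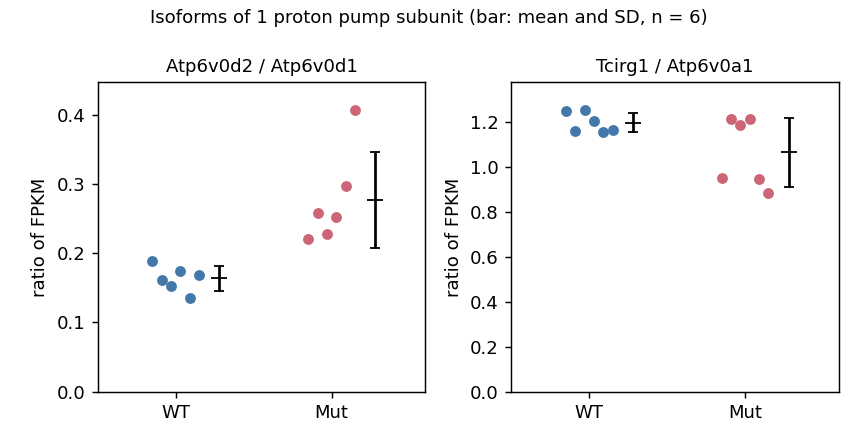
FPKM ratio of 2 isoforms of the same V-ATPase subunit in each library (dots), with mean and SD (n = 6 per group). Atp6v0d2 to Atp6v0d1 lies between 0.135 and 0.188 in WT and between 0.220 and 0.406 in Mut, and Tcirg1 to Atp6v0a1 overlaps between the groups.

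Markers of alveolar macrophages, which express Atp6v0d2, moved in both directions. Of 14 such markers other than Atp6v0d2, 2 rose and 4 fell, and their summed level ran from 511 to 741 CPM in WT and from 639 to 990 CPM in Mut. Chil3 and Plet1 rose, and Ear1, Ear2, Krt79 and Fabp1 fell. None of the 14 was at 0 in every library. The summed level of 6 osteoclast markers ran from 42.3 to 56.9 CPM in WT and from 39.7 to 57.3 CPM in Mut. The part of these cells in the Atp6v0d2 result was not tested.

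Of the 7 membrane proteins 0 were called by edgeR, against 9.89% of all entries. At an unadjusted p under 0.05 stood 2, against 27.7% of all entries. DESeq2 and limma-voom called 1 each, Scarb2. These counts are not read as a result about the group. The median log2 fold change of the 7 was 0.06. Scarb2 encodes LIMP-2, the receptor that carries glucocerebrosidase to the lysosome. It read from 329 to 414 CPM in WT (median 365) and from 423 to 479 CPM in Mut (median 436). All 6 Mut libraries lay above all 6 WT libraries, yet the adjusted p stood just outside the threshold (log2 fold change 0.26, SE 0.08, adjusted p = 0.0512). It was called without WT replicate 1, WT replicate 7 or Mut replicate 3 (adjusted p from 0.0373).

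Ctns, the cystine exporter cystinosin, read from 23.3 to 27.4 CPM in WT (median 24.8) and from 25.5 to 31.3 CPM in Mut (median 29.1). 5 of the 6 Mut libraries exceeded every WT library, and the difference was not called (log2 fold change 0.19, adjusted p = 0.127). Lamp2, the partner of Lamp1 that also serves chaperone-mediated autophagy, read from 406 to 481 CPM in WT and from 452 to 655 CPM in Mut, with Mut replicate 7 far above the next Mut library at 502 CPM. Lamp1 itself read from 687 to 810 and from 719 to 873 CPM. The calcium channel gene Mcoln1 (49.3 to 59.3 and 42.8 to 54.2 CPM), Cln3 (22.97 to 28.3 and 21.8 to 27.4 CPM) and the acetyltransferase gene Hgsnat (43.1 to 51.7 and 44.6 to 52.0 CPM) had overlapping groups too.

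Of the 9 genes of sphingolipid breakdown 0 were called by edgeR, against 9.89% of all entries. At an unadjusted p under 0.05 stood 4, against 27.7% of all entries. DESeq2 called 2 of the 9 and limma-voom 0. These counts are not read as a result about the group. The median log2 fold change was 0.06. Smpd1, the acid sphingomyelinase that turns sphingomyelin into ceramide, read from 63.9 to 77.5 CPM in WT (median 69.9) and from 76.4 to 90.6 CPM in Mut (median 79.7). 5 of its 6 Mut libraries exceeded every WT library (log2 fold change 0.21, SE 0.07, adjusted p = 0.0635). Gm2a, the activator that hands ganglioside GM2 to its hydrolase, lay on the other side. It read from 116 to 142 CPM in WT (median 123) and from 89.1 to 129 CPM in Mut (median 99.5), with 5 of 6 Mut libraries below every WT library (log2 fold change −0.27, SE 0.09, adjusted p = 0.0615). Smpd1 was called without WT replicate 4 (adjusted p = 0.0468), and without Mut replicate 7 both genes were called (0.0441 for Smpd1, 0.00901 for Gm2a).

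Asah1, the acid ceramidase, and Arsa, which removes the sulfate of sulfatide, also had unadjusted p-values under 0.05. Asah1 read from 179 to 217 CPM in WT and from 216 to 324 CPM in Mut, where replicate 7 stood apart from the other 5 at 216 to 241 CPM (log2 fold change 0.24, adjusted p = 0.132, and 0.14 without Mut replicate 7). Arsa read from 33.7 to 39.8 CPM in WT and from 32.0 to 46.6 CPM in Mut (log2 fold change 0.23, adjusted p = 0.117). It was called without Mut replicate 7 (0.30, adjusted p = 0.0143), so that 1 library decided the call. The remaining 5 genes overlapped between the groups. Among them Hexa, a subunit of β-hexosaminidase, read from 77.8 to 120 and from 81.5 to 116 CPM, and Psap from 897 to 1165 and from 826 to 985 CPM. Gla, the α-galactosidase that is deficient in Fabry disease, read from 11.2 to 13.6 CPM in WT and from 11.4 to 14.6 CPM in Mut. The β-galactosidase gene Glb1 (25.4 to 29.8 and 24.8 to 28.6 CPM) and Galc, the galactosylceramidase (25.8 to 29.8 and 24.9 to 32.7 CPM), completed the group.

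The 7 glycosaminoglycan enzymes went in both directions, with 1 called higher and 1 called lower, against 4.57% and 5.31% of all entries. At an unadjusted p under 0.05 stood 5, 2 higher and 3 lower, against 27.7% of all entries. DESeq2 called 3 of the 7 and limma-voom 1, Galns. Their median log2 fold change was −0.17. Ids, the sulfatase that starts the breakdown of heparan and dermatan sulfate (ENSMUSG00000035847, chromosome X from 70343069 to 70365084), read from 112 to 162 CPM in WT (median 143) and from 146 to 213 CPM in Mut (median 181). 5 of 6 Mut libraries lay above every WT library, and the log2 fold change was 0.34 (SE 0.10, adjusted p = 0.0459). This call held without WT replicate 7 or without Mut replicate 3 and ended without any of the other 10 libraries (adjusted p from 0.0606 to 0.107). Idua, which acts next on the same chains, read from 22.9 to 26.1 CPM in WT and from 24.3 to 31.6 CPM in Mut and was not called (log2 fold change 0.19, adjusted p = 0.151).

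Galns, the sulfatase of keratan sulfate and chondroitin 6-sulfate (ENSMUSG00000015027, chromosome 8 from 122578242 to 122611463), fell from a WT range of 21.2 to 27.8 CPM (median 23.9) to a Mut range of 17.0 to 23.5 CPM (median 18.8). 5 of 6 Mut libraries lay below every WT library, and the highest Mut library, replicate 3, lay among the WT values. The log2 fold change was −0.33 (SE 0.10, adjusted p = 0.0474), and leaving out WT replicate 1, WT replicate 7, Mut replicate 3 or Mut replicate 7 kept the call. It ended without any of the other 8 libraries (adjusted p from 0.0555 to 0.117).

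Naglu, the N-acetylglucosaminidase of heparan sulfate, read from 20.3 to 25.5 CPM in WT (median 24.4) and from 15.9 to 21.5 CPM in Mut (median 18.7). The difference lay at the threshold without passing it (log2 fold change −0.30, SE 0.09, adjusted p = 0.05004). It was called without WT replicate 7 (adjusted p = 0.0326) or without Mut replicate 3 (0.0327). Gusb, the β-glucuronidase, read from 58.7 to 67.5 CPM in WT and from 47.6 to 63.9 CPM in Mut (log2 fold change −0.17, adjusted p = 0.155). Sgsh, the heparan N-sulfatase (20.4 to 24.4 and 15.02 to 24.6 CPM), and Arsb, the N-acetylgalactosamine 4-sulfatase (8.25 to 14.96 and 8.46 to 17.0 CPM), overlapped between the groups. Exons of Sgsh share 21.6% of their bases with Card14 and those of Arsb 32.3% with a noncoding gene, each on the opposite strand. Whether counting used the strand is not stated, so reads of such pairs cannot be told apart.

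Among the 6 genes that split sugars from glycoproteins and glycogen, 1 was called, Manba, against 9.89% of all entries. The median log2 fold change of the 6 was −0.09. Manba encodes the β-mannosidase (ENSMUSG00000028164, chromosome 3 from 135485611 to 135571404). It read from 50.3 to 58.9 CPM in WT (median 53.1) and from 38.6 to 50.2 CPM in Mut (median 42.9). All 6 Mut libraries lay below all 6 WT libraries, with little room between the groups. The log2 fold change was −0.28 (SE 0.08, 95% confidence interval −0.45 to −0.11, adjusted p = 0.0359). WT replicates 1, 3, 4, 5 and 6 and Mut replicates 1, 2 and 5 each ended the call when left out (adjusted p from 0.0519 to 0.0920).

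The other 5 sugar-splitting genes were not called. Fuca1, the α-fucosidase, read from 70.5 to 88.0 CPM in WT and from 66.1 to 73.5 CPM in Mut (log2 fold change −0.15, adjusted p = 0.167). For Man2b1, the α-mannosidase, 5 of 6 Mut libraries lay below every WT library (116 to 123 and 98.6 to 117 CPM). Gaa, the α-glucosidase that digests glycogen, read from 79.6 to 102 CPM in WT and from 83.7 to 104 CPM in Mut, and it was called higher when WT replicate 4 and Mut replicate 7 were both left out. The sialidase gene Neu1 (34.2 to 50.5 and 34.7 to 43.6 CPM) and Ctsa, whose product protects the sialidase (128 to 156 and 134 to 151 CPM), had Mut values inside the WT range.

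Tpp1 had the smallest p of the 43 genes. It encodes tripeptidyl peptidase 1, which takes tripeptides off the ends of proteins and is lost in a form of neuronal ceroid lipofuscinosis (ENSMUSG00000030894, chromosome 7 from 105744811 to 105752235). Tpp1 read from 118 to 141 CPM in WT (median 135) and from 162 to 185 CPM in Mut (median 169). Each Mut library exceeded every WT library, by more than the SD of either group (8.23 CPM in WT, 8.26 CPM in Mut). The log2 fold change was 0.35 (SE 0.07, 95% confidence interval 0.21 to 0.49, adjusted p = 0.00636), a rise of 27.2%. Ppt1, the thioesterase that removes palmitate from proteins, read from 106 to 118 CPM in WT and from 104 to 110 CPM in Mut and was not called (adjusted p = 0.385).

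Of the 3 transcription factors 1 was called higher, against 4.57% of all entries. It was Mitf (ENSMUSG00000035158, chromosome 6 from 97807052 to 98021349), which is also known for its role in melanocytes, mast cells and osteoclasts. Mitf read from 11.8 to 17.1 CPM in WT (median 12.9) and from 17.2 to 20.4 CPM in Mut (median 17.6). The groups did not overlap, but the highest WT library, replicate 7, came close to the lowest Mut library. The log2 fold change was 0.44 (SE 0.10, 95% confidence interval 0.22 to 0.66, adjusted p = 0.0164), a rise of 35.5%. Tfeb (21.6 to 29.0 CPM in WT, 19.9 to 27.8 CPM in Mut) and Tfe3 (47.4 to 58.2 and 40.4 to 53.6 CPM) overlapped, with 95% confidence intervals of −0.21 to 0.20 and −0.30 to 0.05. A count per gene adds the promoter-specific forms of Mitf and does not separate them.

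**Figure D4:**
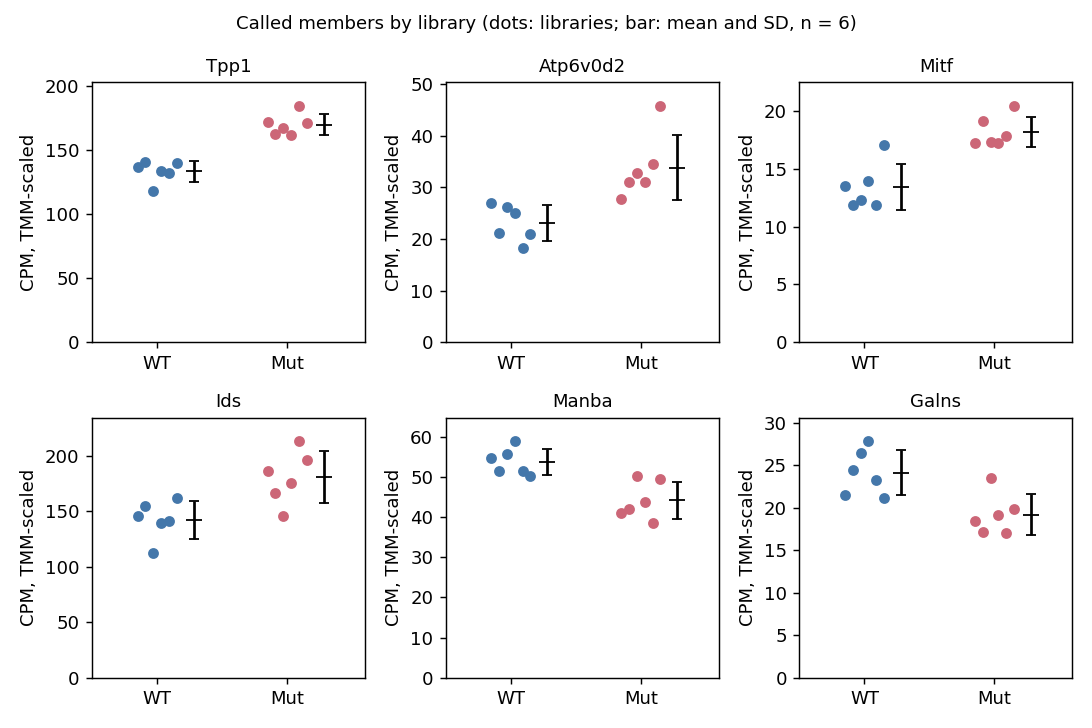
TMM-scaled CPM of the 6 called genes in each library (dots), with mean and SD (n = 6 per group). Tpp1, Atp6v0d2, Mitf and Manba separate the groups in full, while for Ids and Galns 1 Mut library each lies among the WT values.

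**Figure D5:**
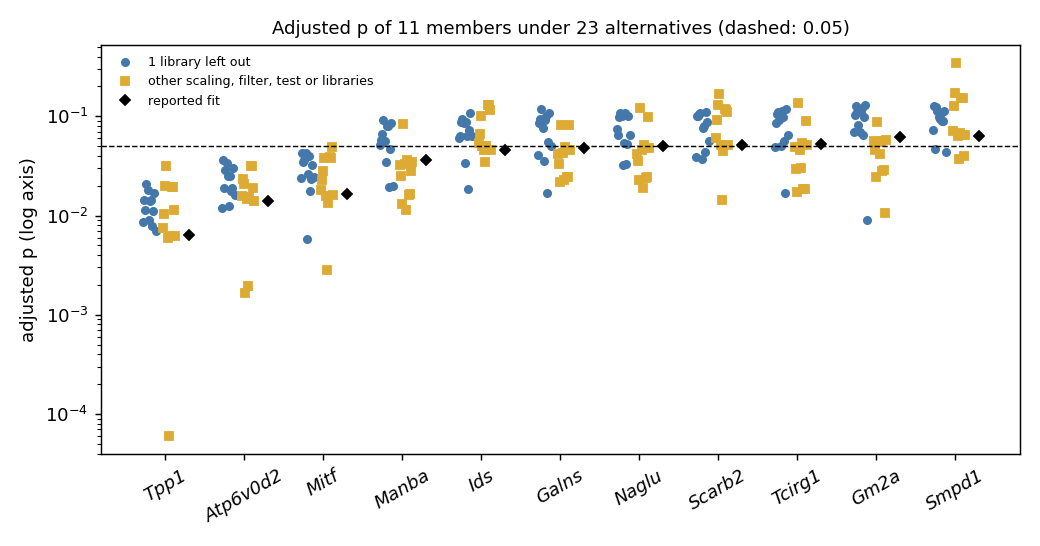
Adjusted p, on a log axis, of the 11 genes with the smallest p under 23 alternatives and in the reported fit, with a dashed line at the threshold of 0.05. All points of Tpp1, Atp6v0d2 and Mitf lie below the line, with highest values of 0.0319, 0.0365 and 0.0485, and those of the other 8 genes lie on both sides of it.

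Other lysosomal genes outside the 43 were followed in lists of known lysosomal function. Of 26 further hydrolases and activators 2 were called, both higher, against 9.89% of all entries called. At an unadjusted p under 0.05 stood 10, 9 higher and 1 lower, against 27.7% of all entries (14.4% higher, 13.2% lower). The median log2 fold change was 0.03. Arsk, the glucuronate 2-sulfatase, read from 19.2 to 24.8 CPM in WT (median 22.9) and from 27.2 to 33.7 CPM in Mut (median 31.4), without overlap (log2 fold change 0.46, SE 0.08, adjusted p = 0.00482). Dpp7, a dipeptidyl peptidase, also rose (0.28, adjusted p = 0.0407), a call that held without WT replicate 4 or Mut replicate 4 or 7. Leaving out any of the remaining 9 libraries ended it (adjusted p up to 0.0933).

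Of 27 further membrane proteins 3 rose and 1 fell, against 4.57% and 5.31% of all entries, with a median log2 fold change of 0.06. Npc1, which exports cholesterol from the lysosome, read from 65.3 to 103 CPM in WT (median 84.0) and from 100 to 142 CPM in Mut (median 123), a log2 fold change of 0.57 (SE 0.11, adjusted p = 0.00610). Tmem106b rose too (log2 fold change 0.40, adjusted p = 0.0403), a call that held without WT replicate 1 or 7 or Mut replicate 3 and ended without any other library (adjusted p up to 0.0923). Laptm5, a lysosomal membrane protein of blood cells, fell from 148 to 213 CPM in WT (median 163) to 97.9 to 128 CPM in Mut (median 115), without overlap between the groups (log2 fold change −0.56, SE 0.10, adjusted p = 0.00391). Beside it and the erythroid markers, 8 of 8 B-cell markers and 8 of 8 T-cell markers fell. The summed B-cell markers ran from 211 to 430 CPM in WT and from 125 to 199 CPM in Mut, and the T-cell markers from 108 to 158 and from 60.9 to 103 CPM. Their part in the Laptm5 result was not tested.

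Of 22 genes that sort cargo to the lysosome 2 were called, both higher, against 9.89% of all entries called. At an unadjusted p under 0.05 stood 6, all higher, against 27.7% of all entries (14.4% higher). The median log2 fold change was 0.10. Vps35, a core subunit of the retromer that recycles sorting receptors, read from 144 to 193 CPM in WT (median 169) and from 191 to 227 CPM in Mut (median 207), a log2 fold change of 0.30 (adjusted p = 0.0269). Ap3b1, a subunit of the AP-3 adaptor, read from 50.7 to 64.9 CPM in WT and from 63.5 to 76.0 CPM in Mut (0.28, adjusted p = 0.0243). WT replicates 3, 5 and 6 and Mut replicates 4 and 5 each ended both calls when left out. WT replicate 4 and Mut replicate 2 did so for Vps35 alone (adjusted p up to 0.0645 for Vps35 and 0.0596 for Ap3b1).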

How the data were processed

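The deposited table of counts holds whole numbers that are not normalized. The deposited FPKM values are the authors' own and, for each of the 43 genes, are proportional to count over library total. Per the submitters' processing notes, mm10 was the build, and limma is listed with no stated use; aligner, counter and annotation are not given in the sources used here. RNA was selected with oligo(dT) and primed at random, per the labels' protocols. Totals ran from 17118716 to 24014890 counts, of which 0.585% to 0.868% fell on 4690 unannotated entries. Symbols and positions came from GENCODE M21 (GRCm38, the assembly of mm10).

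The tests ran in edgeR 4.0.16 under R 4.3.3 (filterByExpr with minimum count 10 and total 15, TMM, robust quasi-likelihood test, genotype as the only term, Benjamini-Hochberg adjustment). CPM values are TMM-scaled. Alternatives used DESeq2 1.42.0, limma 3.58.1 (voom, and log2(FPKM + 1) or log2(FPKM + 0.1) at a mean FPKM of at least 0.5), RLE, upper-quartile or no scaling, no filter or 1 CPM in 6 libraries, the replicate block, a threshold of 0.1 and each library left out. Leaving out WT replicate 4 with Mut replicate 7, or the unannotated entries, was added after seeing the data. The pipeline was tested on simulated data. Any of the 43 genes could be named. The others named are up to 4 called genes of smallest p per list, and markers chosen after their values were seen. A gene among the further membrane proteins is not reported here. The members and lists were chosen with earlier results of these data known. Exons of 12 of the 43 genes, none of the 6 called, share bases with another annotated gene.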

Additional observations from a re-analysis of the deposited data

Results flagged for a closer look

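In each group of 6 libraries the highest and lowest values were compared with the nearest other library, for the 43 genes, the marker sums and the library totals. A gap above Dixon's 95% critical value for its share of the group's range was found in 13 of 114 groups, 9 of them among the 86 groups of the 43 genes. Chance flags about 1 group in 20. Mut replicate 7 accounted for 5 of those 9, with Atp6v1a at 263 CPM (next library 180), Asah1 at 324 (next 241), Lamp2 at 655 (next 502), Atp6v1b2 at 197 (next 162) and Atp6v0d2 at 45.8 CPM (next 34.5). The same library stood out in its total of 24014890 counts and in its summed markers of alveolar type 2 cells (37092 CPM) and of macrophages and monocytes (9008 CPM). Mut replicate 3 stood out for Lamp1 (873 CPM) and Smpd1 (90.6 CPM), WT replicate 4 for Gm2a (142 CPM) and Neu1 (50.5 CPM), and Mut replicate 1 for the summed T-cell markers (103 CPM).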

How the results depend on the processing

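Of 18 of the 43 genes followed under every alternative, those with an unadjusted p under 0.05, all 18 kept the sign of their fold change. Since that p came from the same libraries, a kept sign was close to fixed in advance and does not measure stability. The 25 genes with a larger p were not followed. The counts of calls moved more. The 4 higher genes became 3 to 5 and the 2 lower genes 0 to 3 when 1 library was left out. In the same fits hydrolases ran from 1 to 3 higher and 0 to 3 lower, V-ATPase genes called lower from 0 to 1, and membrane proteins called higher from 0 to 1. Lower genes numbered 4 with RLE scaling or a 1 CPM filter, 0 with no low-count filter, and 5 with upper-quartile scaling, library totals, DESeq2, both FPKM scales or a threshold of 0.1. Hydrolases called higher numbered 1 with the 3 other scalings, no filter, limma-voom and both FPKM scales, and 4 without WT replicate 4 and Mut replicate 7. Hydrolases called lower numbered 0 with no filter and 4 with upper-quartile scaling, library totals, DESeq2, both FPKM scales or a threshold of 0.1. Tcirg1 was the 1 V-ATPase gene called lower with those scalings, RLE, the 1 CPM filter, DESeq2, the FPKM scales and the looser threshold. Scarb2 was the 1 membrane protein called higher by DESeq2, limma-voom and at 0.1. The causes were not tested. Over all entries, library totals alone gave 518 higher and 1513 lower calls, against 869 and 1010. The log2 ratio of Atp6v0d2 to Atp6v0d1 ran from 0.62 to 0.79 and that of Tcirg1 to Atp6v0a1 from −0.22 to −0.13 with 1 library left out.

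For the replicate numbers shared by 5 pairs of libraries, deviations from the group means correlated between −0.14 and 0.11. The numbers were not taken as pairing the libraries, and the labels do not say what they mark. The correlations alone cannot settle it, since none of libraries with unlike numbers are given beside them. In a fit with a replicate block, 0 of the 43 genes were called in either direction. Over all 19004 entries tested, 74 higher and 33 lower ones remained. The WT library and the Mut library outside the 5 pairs each stood alone in a block and added nothing to the genotype difference. The block also left less information on the spread between libraries. The lost calls therefore cannot tell an effect of pairing from a weaker test. Under the block Tpp1 had an adjusted p of 0.110, Mitf of 0.128 and Atp6v0d2 of 0.146, with log2 fold changes of 0.36, 0.40 and 0.50. Without the block these fold changes were 0.35, 0.44 and 0.55.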
